A study of Equus caballus with 21 samples.

Results

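Mucin and glycoprotein glycans are built by families of glycosyltransferases, and 38 genes of these families were followed in horse endometrium. They were chosen by symbol, as the rows of the deposited 21-library expression table whose RefSeq symbol begins with GALNT, GCNT, B3GNT, B4GALT, B3GALT, FUT, MGAT, ST3GAL, ST6GAL, ST6GALNAC or ST8SIA followed by a digit. They were 38 of the 10307 rows of that table, from which the authors had left out other gene IDs. The count table of 24942 gene IDs held 78 symbols of this form, and the other 40 were outside the 21-library table. Of these 40, 20 had no count, 6 had 1 to 14 counts and 14 had 15 or more counts over all libraries, at most 199 (B3GNT9), so that the level of expression bore on which genes were followed. The 38 had 50 counts or more. No ST8SIA gene was among the 38.

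The tissue came from uterine biopsies of healthy warmblood mares on day 12. Pregnant biopsies followed insemination, cyclic biopsies came from a cycle without it, and in both states ovulation was induced with human chorionic gonadotropin. Laser capture microdissection gave stroma (S), the supporting tissue between the glands, glandular epithelium (GE), which secretes into the uterus, and luminal epithelium (LE), which lines the cavity and faces the conceptus. There were 2 pregnant and 2 cyclic stromal libraries, 4 pregnant and 4 cyclic glandular libraries, and 4 pregnant and 5 cyclic luminal libraries. A letter in the labels names the mare (B, C, J, M or U), and both epithelia were sampled in both states in mares B, C, M and U. Stroma came from pregnant mares M and U and from cyclic mares B and M. From mare J there was a single library, of cyclic LE.

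Glycans on mucins start when a GALNT enzyme attaches N-acetylgalactosamine to serine or threonine. GCNT enzymes add the branch that makes a core 2 structure, B3GNT, B3GALT and B4GALT enzymes lengthen the chains with alternating N-acetylglucosamine and galactose, and FUT and sialyltransferase enzymes cap them with fucose and sialic acid. MGAT enzymes make the antennae of glycans on asparagine (N-glycans). The luminal glycocalyx that these enzymes build is the surface that a conceptus meets, and in the horse the early conceptus also carries a mucin-like capsule of its own. Roles given here are those of the human and mouse enzymes.

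Depth was low. Total counts ran from 136259 to 1467510 per library, with a median of 402524, and 1 count was worth 0.576 to 6.86 CPM, the count scaled to a common library size and the unit of all levels below. Pregnant LE and cyclic GE of mare M stood apart. They held 136259 and 222623 counts, 18S ribosomal RNA (RN18S) took 0.452% and 0.293% of them, and the authors' second table, of 19 libraries, lacks both. The pregnant stromal library of mare M also stood apart, with 1175127 counts, 66.2% of them RN18S. Its summed gland markers were 5653 CPM, against 846 to 1974 CPM in the other 3 stromal libraries. Pregnant S of mare U was low in counts (202545) and in RN18S (0.819%), and cyclic S of mare M held 138441 counts. The gland markers followed the labels: P19 (uterocalin), SCGB1A1, LTF and FOXA2 summed to 14455 to 53408 CPM in GE. In LE they summed to 359 to 4482 CPM and in S to 846 to 5653 CPM. LTF and FOXA2 had no count in any library. The 5 smooth muscle markers also kept S apart, at 217 to 1796 CPM in S, 0 to 9.76 CPM in GE and 0 to 209 CPM in LE. The stromal fibroblast and epithelial sums overlapped between S and LE. The 8 stromal fibroblast genes used summed to 4832 to 12627 CPM in S, 345 to 1544 CPM in GE and 636 to 5118 CPM in LE. The highest luminal value, of pregnant M, lay inside the range of S. The 4 epithelial genes used summed to 60.9 to 557 CPM in S, 839 to 14970 CPM in GE and 464 to 2657 CPM in LE.

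No glycosyltransferase had a count in all 21 libraries, and 14 had one in at least 15. A library held counts of 10 to 23 of them in S, 16 to 31 in GE and 14 to 36 in LE. In S, 9 had no count at all (B3GNT3, B3GNT4, B3GNT7, B4GALT3, GALNT2, GALNT6, GCNT4, MGAT5 and ST6GAL2), and 25 had fewer than 10 counts in every library. B3GNT3 and B3GNT7, which extend core structures and keratan sulfate chains, were counted in LE only, in 2 and 3 of 9 libraries. B3GALT5, which adds galactose to chain ends in many epithelia, had no count in 9 luminal libraries and 1 to 58 counts in 6 of 8 glandular libraries. Per the RefSeq annotation of the TB-T2T assembly, 19 of the 38 overlap another gene and 9 a protein-coding one (GALNT4, for example, with POC1B, B3GNT2 with COMMD1, B4GALT4 with ARHGAP31 and ST3GAL6 with DCBLD2). The 19 also include GCNT3, GCNT1, ST6GAL1, GALNT1 and ST6GALNAC3, each of which overlaps 1 gene that is not protein-coding. Counts of all 19 are uncertain, since how shared reads were counted is not stated. Genes are named by RefSeq symbol, with the Entrez gene ID for the main ones. No coordinates are given, because the sources used here do not name a build.

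**Figure D1:**
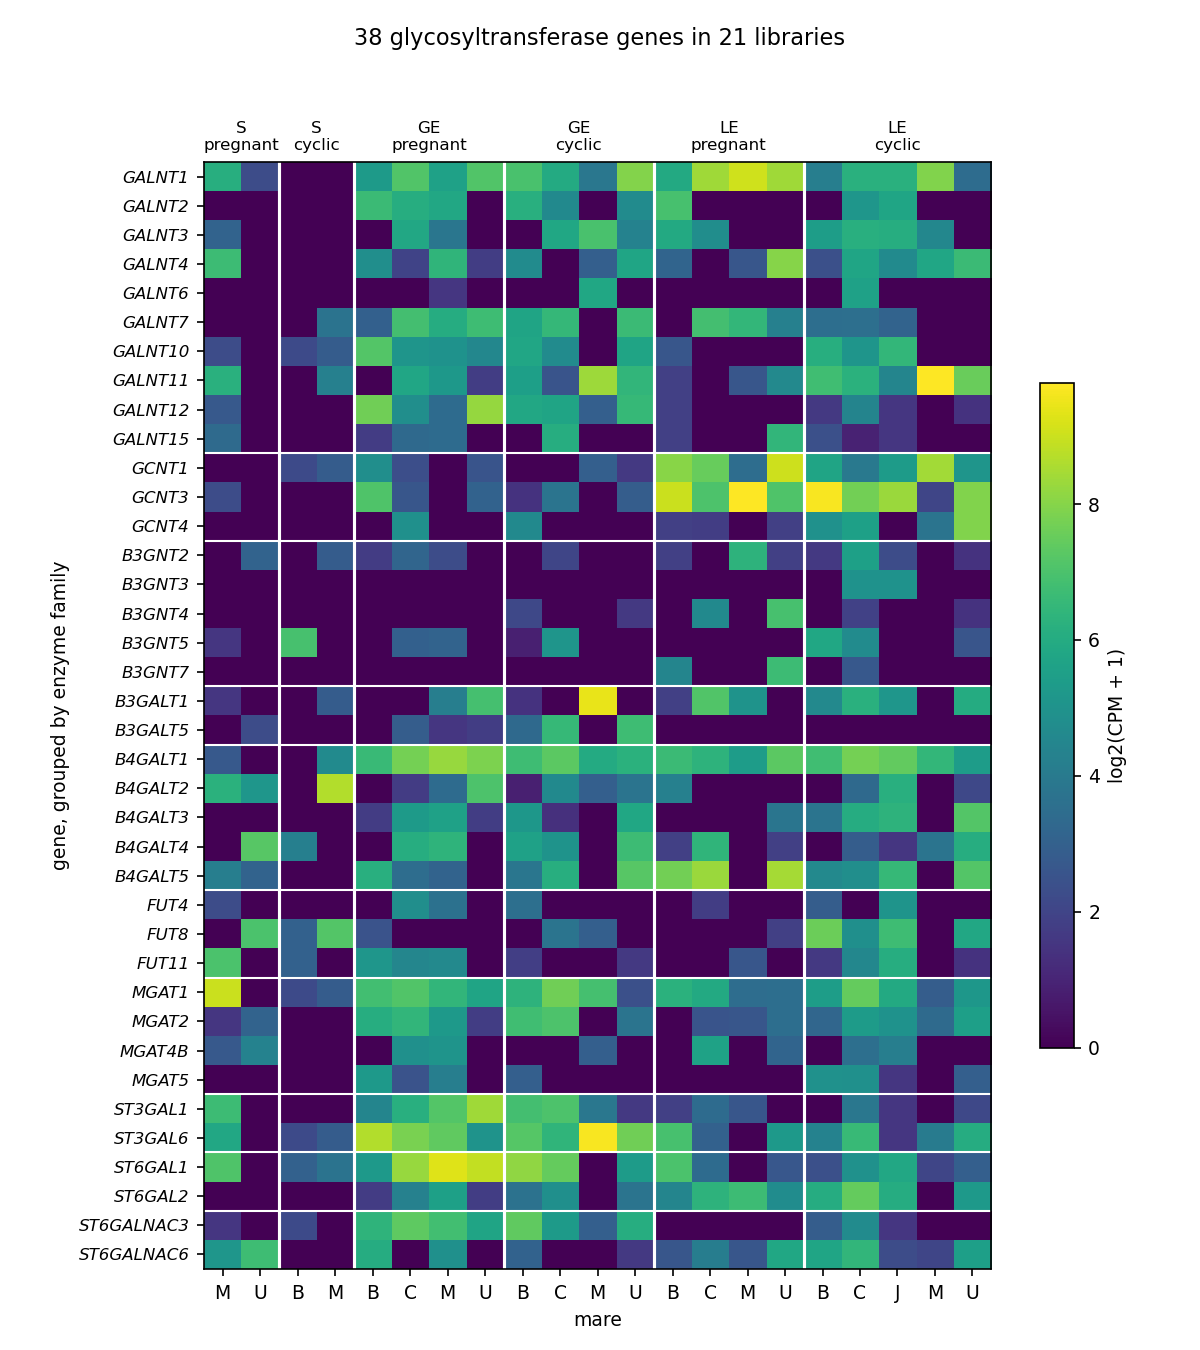
Level of each of the 38 glycosyltransferase genes, as log2(CPM + 1) in colour, in each of the 21 libraries, with genes down the page by enzyme family and libraries across by compartment (S, GE, LE), state and mare. The GCNT1 and GCNT3 rows are brightest in LE, the ST3GAL1, ST6GAL1 and ST6GALNAC3 rows in GE, and the stromal columns are mostly at 0.

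Glandular epithelium was set against luminal epithelium. GCNT3, the core 2 and core 4 branching enzyme of mucin-type glycans, gene ID 100068109, was lower in GE in every biopsy that gave both epithelia (8 of 8) and was the only one of the 30 glycosyltransferases tested here to pass the threshold. It averaged 20.9 ± 45.8 CPM in GE (SD, n = 8) and 359.7 ± 310.1 CPM in LE (n = 9). GCNT1 (100061416), the other widespread core 2 enzyme, had the same direction in 8 of 8 biopsies without passing, and several sialyltransferases had the opposite one.

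GCNT3 stood at 134, 5.18, 0 and 7.32 CPM in pregnant GE of mares B, C, M and U and at 1.67, 12.7, 0 and 6.35 CPM in cyclic GE. In LE it stood at 512, 129, 869 and 136 CPM in pregnant B, C, M and U and at 826, 203, 314, 3.16 and 244 CPM in cyclic B, C, J, M and U. Pregnant B was high among glandular libraries, and cyclic M, with a single count, was low among luminal ones, so that the compartments overlapped through these libraries. The log2 fold change of GE over LE, from counts summed per mare with the mare as block, was -5.00 ± 1.13 (SE; edgeR quasi-likelihood adjusted p = 0.00194). Lower at this threshold were 0.8% of the 9122 genes tested and higher 0.68%, and 1.57% of all genes were lower in every biopsy. No glycosyltransferase had all glandular libraries above or all below the luminal ones, as 0.493% and 0.285% of all genes did.

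GCNT1 stood at 27.6, 4.03, 0 and 4.88 CPM in pregnant GE and at 0, 0, 6.86 and 2.12 CPM in cyclic GE of B, C, M and U. In LE it stood at 265, 179.8, 10.4 and 516 CPM in pregnant B, C, M and U and at 50.7, 14.6, 39.9, 338 and 33.5 CPM in cyclic B, C, J, M and U. All glandular libraries but pregnant B lay below all luminal ones. The log2 fold change was -5.31 ± 1.61 (edgeR adjusted p = 0.0645). GCNT4, a further core 2 enzyme, reached 29.4 CPM in GE (pregnant C) and 239 CPM in LE (cyclic U), with no count in 6 of 8 glandular and 2 of 9 luminal libraries.

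The make-up of the branching transcripts differed between luminal libraries, within a mare as well as between mares. GCNT3 was 65.7% of the GCNT1, GCNT3 and GCNT4 counts in the median luminal library, and ranged from 0.893% in cyclic M (1 of 112 counts, exact 95% interval 0.0226 to 4.87%) to 98.8% in pregnant M (167 of 169 counts, 95.8 to 99.9%). In mare M the branching enzyme counted was thus almost wholly GCNT3 in pregnancy and GCNT1 in the cycle, whereas in mare B GCNT3 was the larger share in both states, at 65.7% in pregnancy and 91.1% in the cycle. Beside this, summed gland markers in the luminal libraries of mare M were 359 CPM in pregnant LE and 4429 CPM in cyclic LE, and summed stromal fibroblast genes were 5118 CPM and 1330 CPM. Pregnant LE of M had the highest fibroblast sum in LE, inside the range of S, and is one of the libraries that stood apart, with 136259 counts and 0.452% RN18S. The part of these in the GCNT share was not tested. These shares were chosen after the values were seen, and intervals cover counting error alone.

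**Figure D2:**
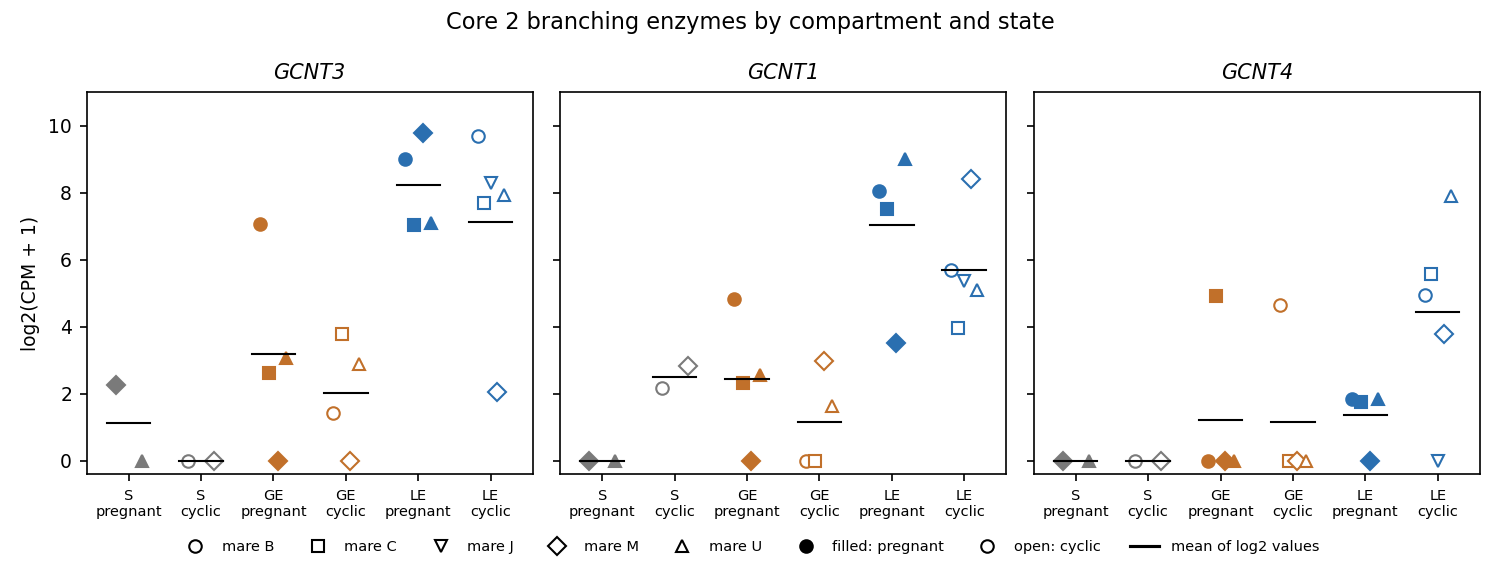
Levels of the GCNT branching enzymes as log2(CPM + 1) in each library, with compartments and states along the x axis, 1 symbol shape per mare, filled symbols for pregnant and open symbols for cyclic libraries, and lines at the mean of the log2 values. GCNT3 averaged 20.9 CPM in GE and 359.7 CPM in LE, with pregnant B high in GE and cyclic M low in LE.

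Among sialyltransferases, ST6GAL1 (100059539), which caps galactose of N-glycans with sialic acid, stood at 36.9, 304, 634 and 471 CPM in pregnant GE and at 285, 174, 0 and 40.2 CPM in cyclic GE of B, C, M and U. In LE it stood at 127, 9.59, 0 and 5.24 CPM in pregnant B, C, M and U and at 4.23, 30.1, 57.0, 3.16 and 6.70 CPM in cyclic B, C, J, M and U. It was higher in GE in 6 of 8 biopsies, the exceptions being pregnant B and cyclic M. The log2 fold change of GE over LE was 3.85 ± 1.18 (243 ± 226 CPM, n = 8, against 27.1 ± 41.8 CPM, n = 9; edgeR adjusted p = 0.067), which missed the threshold.

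ST6GAL2, the close relative of ST6GAL1 with the same reaction, had the other direction, lower in GE in 7 of 8 biopsies and at 0 in both epithelia of cyclic M. It averaged 15.3 ± 15.6 CPM in GE and 63.9 ± 53.0 CPM in LE (edgeR adjusted p = 0.875). Where a library held at least 10 counts of the pair, ST6GAL1 made up 76% to 99.5% of them in 7 glandular libraries (median 94.1%) and 0% to 86.0% in 8 luminal ones (median 14.7%). The luminal library with 86.0%, pregnant B, overlapped the glandular range, and the next luminal value was 46.9% in cyclic J.

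ST6GALNAC3, which adds sialic acid to N-acetylgalactosamine of sialylated chains, stood at 80.6, 160.2, 113 and 51.2 CPM in pregnant GE and at 167, 39.5, 6.86 and 67.7 CPM in cyclic GE. It had no count in the 4 pregnant luminal libraries and stood at 6.34, 25.5, 1.90, 0 and 0 CPM in cyclic B, C, J, M and U. It was higher in GE in 8 of 8 biopsies (in cyclic M by 1 count against 0), as were 2.2% of all genes tested, and gave an adjusted p of 0.136. Its relative ST6GALNAC6 averaged less in GE than in LE, with no count in 4 glandular libraries and a count in all 9 luminal ones. ST6GALNAC3 was 55.6% to 100% of the counts of the pair in 7 glandular libraries and 0% to 23.1% in 4 luminal libraries with at least 10 counts, ranges that did not meet. Neither share was tested, because the pairs were chosen after the values were seen.

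ST3GAL1, which caps core 1 mucin-type glycans, stood at 20.7, 70.9, 144 and 332 CPM in pregnant GE and at 115, 131, 13.7 and 2.12 CPM in cyclic GE of B, C, M and U. Its luminal values ran from 0 to 13.7 CPM over 9 libraries, with a median of 2.60 CPM. It was higher in GE in 7 of 8 biopsies (adjusted p = 0.119). ST3GAL6, which acts on the ends of lactosamine chains, had counts in all 8 glandular libraries at 31.7 to 823 CPM and in 8 of 9 luminal libraries at up to 119.6 CPM.

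**Figure D3:**
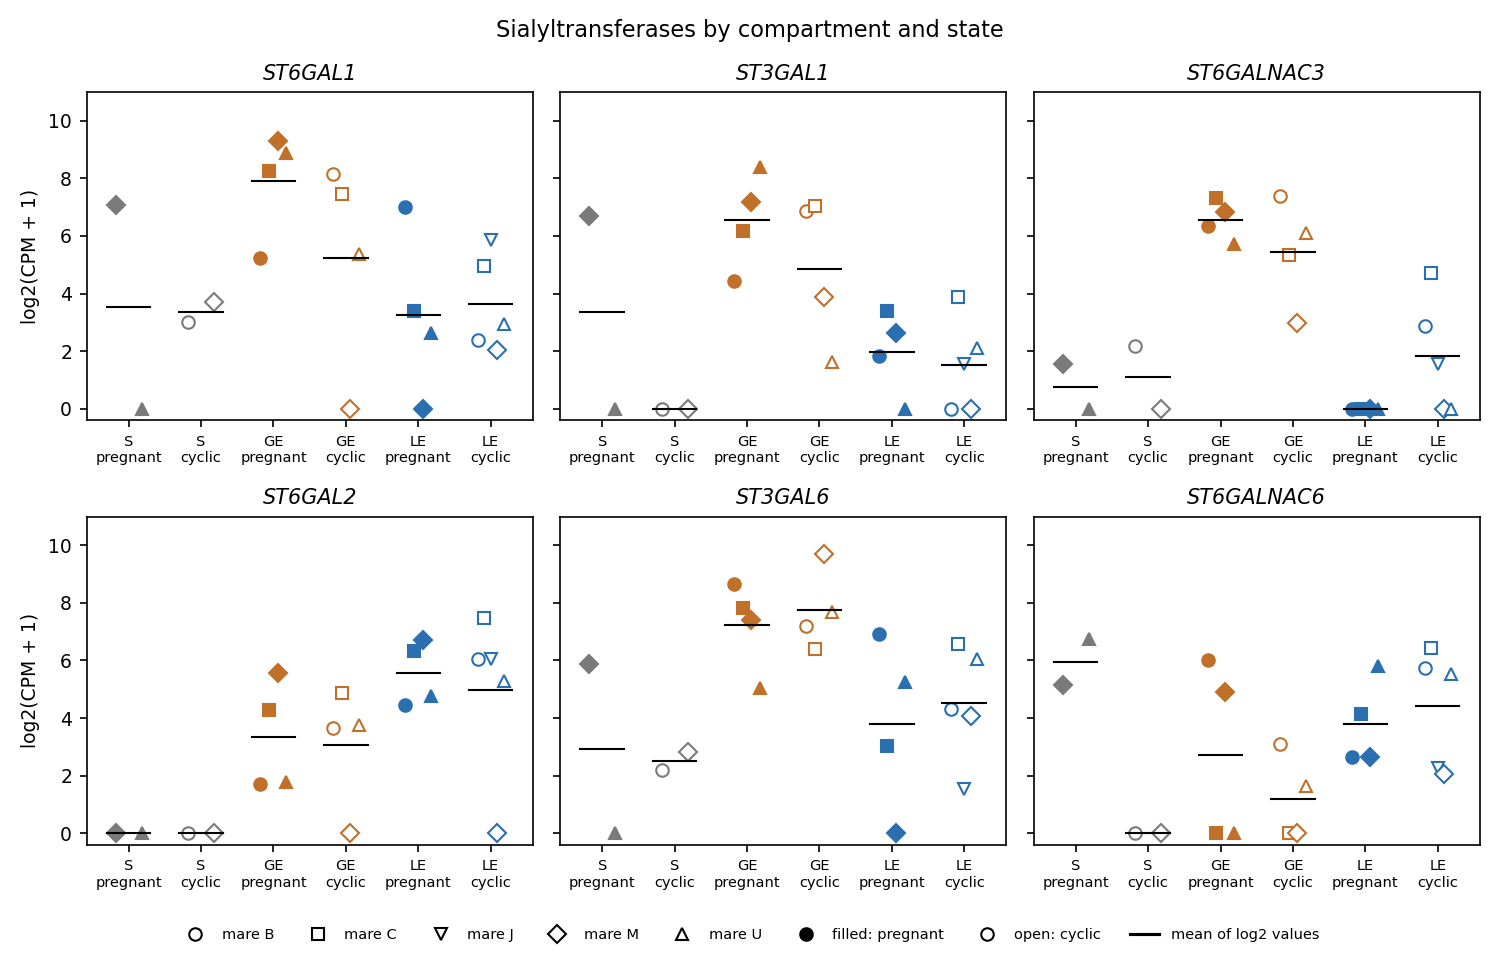
Levels of 6 sialyltransferases as log2(CPM + 1) per library, with compartments and states along the x axis, 1 symbol shape per mare, filled symbols for pregnant and open symbols for cyclic libraries, and lines at the mean of the log2 values. ST6GAL1, ST3GAL1 and ST6GALNAC3 in the upper row lie mostly higher in GE than in LE, while ST6GAL2 and ST6GALNAC6 lie mostly lower in GE.

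Of the 10 GALNT genes that start the chains, GALNT12 was higher in GE in 8 of 8 biopsies, in cyclic M by 1 count against 0. It stood at 200.4, 27.1, 9.58 and 300.1 CPM in pregnant GE and at 57.7, 50.6, 6.86 and 93.2 CPM in cyclic GE, against 2.60, 0, 0 and 0 CPM in pregnant and 2.11, 20.1, 1.90, 0 and 1.67 CPM in cyclic LE. Cyclic C was the luminal library that reached into the glandular range, and the adjusted p was 0.35. GALNT1, a broadly acting starter enzyme, had counts in every epithelial library, at 13.7 to 246 CPM in GE and 10.0 to 530.5 CPM in LE. GALNT2, another broad starter, averaged 42.9 ± 36.0 CPM in GE and 23.0 ± 41.1 CPM in LE. GALNT7 and GALNT10, which prefer peptides that already carry a sugar, averaged more in GE as well, GALNT7 at 66.8 ± 44.2 against 27.9 ± 42.9 CPM, and missed the threshold. GALNT3, GALNT4 and GALNT11 had log2 fold changes of 0.04 ± 1.44, -1.23 ± 1.94 and -1.09 ± 1.16.

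B4GALT1 (100068209), the main enzyme adding galactose to N-acetylglucosamine, was the chain-extending gene counted in all 17 epithelial libraries. It stood at 61.7 to 307 CPM in GE and 41.6 to 211 CPM in LE, higher in GE in 4 of 8 biopsies, with a log2 fold change of 0.58 ± 1.07. B4GALT5, which also makes lactosylceramide, stood at up to 150.3 CPM in GE and 354 CPM in LE. MGAT1, which opens the way to complex N-glycans, was counted in every epithelial library at 98.4 ± 59.0 CPM in GE and 53.1 ± 52.7 CPM in LE, and was higher in GE in 7 of 8 biopsies with a log2 fold change of 0.44 ± 1.15. FUT8, which fucosylates the N-glycan core, held 11 counts in GE (5 of 8 libraries at 0) and 211 counts in LE, of which 210 were in the cyclic libraries of B, C, J and U. FUT4 and FUT11 held at most 47 and 37 counts in an epithelial library.

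Of the 30 glycosyltransferases tested between the epithelia, 4 were higher in GE at an unadjusted p under 0.05 (ST6GAL1, ST3GAL1, ST6GALNAC3 and GALNT12) and 3 lower (GCNT3, GCNT1 and FUT8), where 5.33% of all 9122 genes were higher and 4.87% lower. DESeq2 called 7 of the 29 with an adjusted p (FUT8, GALNT12, GCNT1, GCNT3, ST3GAL1, ST6GAL1 and ST6GALNAC3), and 6.76% of all genes. The median log2 fold change of the 30 was 0.51, against 0.18 over all genes. The other 8 (B3GALT5, B3GNT2, B3GNT3, B3GNT4, B3GNT7, FUT4, GALNT15 and GALNT6) were below the filter on low counts. Summed ciliated cell markers, which also differ between the epithelia, were 4.88 to 455 CPM in GE and 172 to 2080 CPM in LE. Summed lymphocyte markers were 0 to 66.9 CPM in GE and 2.60 to 288 CPM in LE. In such captured tissue fewer cells of a type and less RNA per cell cannot be told apart, and the part of these markers in the differences was not tested. GCNT3 missed the threshold in the cyclic libraries alone (-5.61, adjusted p = 0.207) and in the pregnant libraries alone (-4.57, adjusted p = 0.126), and stayed past it without the 2 libraries of mare M that stood apart.

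**Figure D4:**
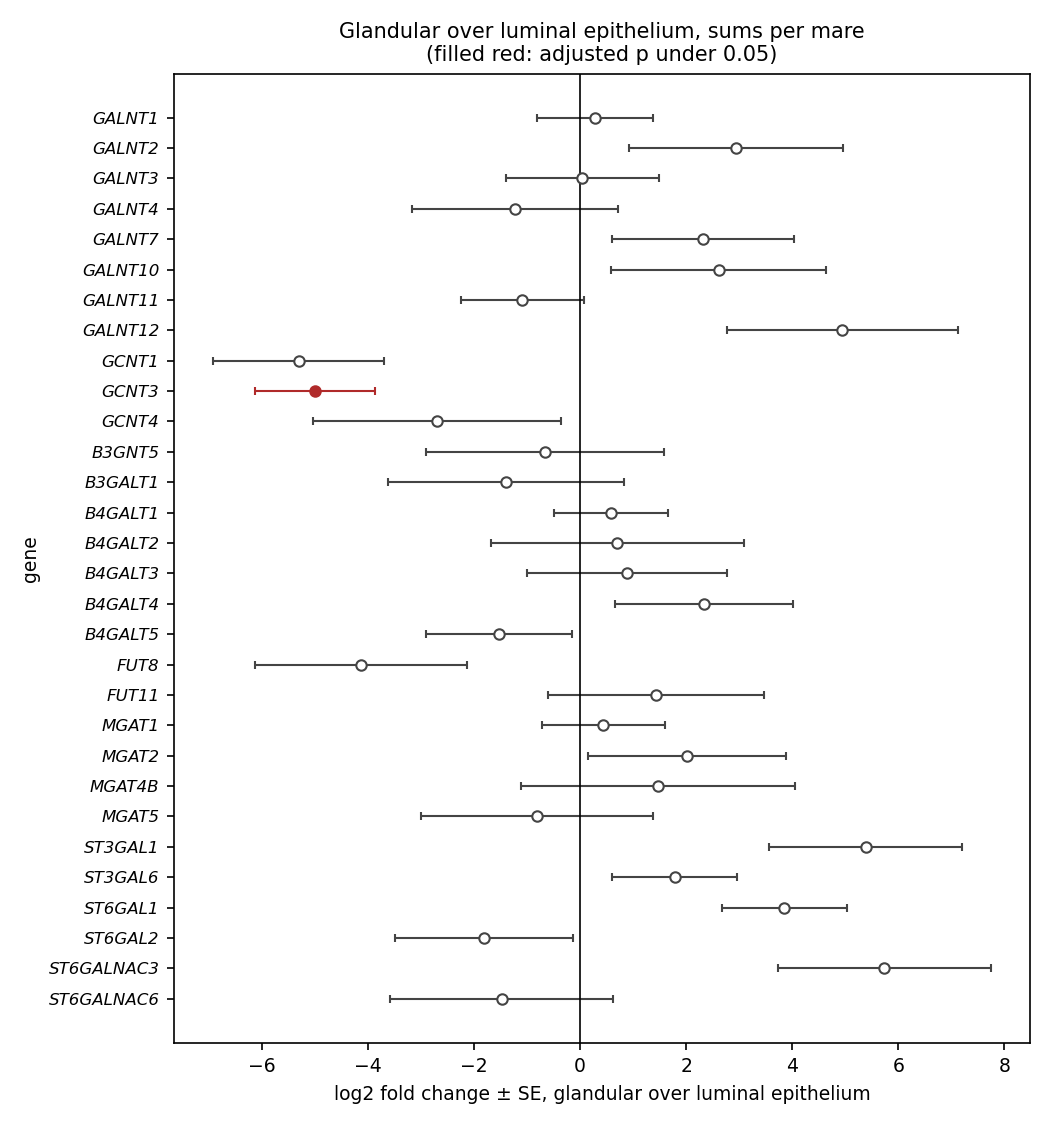
Log2 fold change ± SE of GE over LE for the 30 glycosyltransferases tested, from counts summed per mare, with genes down the page by family. The filled red point is GCNT3 at -5.00, the gene past an adjusted p of 0.05, and the open points did not pass.

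Stroma was then set against each epithelium. Glycosyltransferase counts made up 0.0207% to 0.0758% of a stromal library, and 0.144% to 0.253% of an epithelial one. With ribosomal RNA left out of the totals the shares were 0.0300% to 0.184% in S and 0.150% to 0.303% in the epithelia, and the ranges met, with pregnant S of M (0.184%) above cyclic GE of M (0.150%). GCNT3 passed as lower in S than in LE, and B4GALT1 as lower in S than in GE, and no other glycosyltransferase passed in either comparison. The comparisons share the stromal libraries, and all genes tended to lower values in S, with a median log2 fold change of -1.10 against LE and -1.34 against GE over the 9122 genes tested. For the 30 glycosyltransferases the medians were -2.50 and -3.54.

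GCNT3 held 2 counts in S, both in pregnant M at 3.81 CPM, and 1396 counts in LE. The ratio of luminal to stromal CPM was 196, with a 95% counting interval of 54.2 to 1621, and GCNT3 was lower in S in 4 of 4 biopsies. This held for 5 of the 30 (GCNT3, GCNT1, B4GALT1, GALNT1 and MGAT2) and for 6.63% of all genes, and 0 of the 30 were higher in all 4, against 2.92% of all genes. The fitted log2 fold change of S over LE was -7.64 ± 1.56, a value that with so few stromal counts depends on the prior count (edgeR adjusted p = 0.000309). Lower at this threshold were 1.58% of all genes and higher 0.559%. Without pregnant LE of mare M the call ended (adjusted p = 0.126), as it did without that library and cyclic GE of mare M (0.114), in the cyclic libraries alone (0.359) and in the pregnant libraries alone (0.195).

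B4GALT1 stood at 5.71 and 0 CPM in pregnant S of M and U and at 0 and 24.4 CPM in cyclic S of B and M. All 4 stromal libraries lay below all 8 glandular libraries, of which the lowest was cyclic M at 61.7 CPM, and below all 9 luminal libraries, of which the lowest was pregnant M at 41.6 CPM. Of all genes, 2.49% lay below every glandular and 1.67% below every luminal library in this way. None of the 30 lay above them, as 0.877% and 0.493% of all genes did. Against GE, 6 of the 30 were lower in all 4 biopsies (10.9% of all genes) and 0 higher (2.73%). The log2 fold change of S over GE was -5.54 ± 1.55 (7.52 ± 11.5 CPM, n = 4, against 156 ± 87.3 CPM, n = 8; edgeR adjusted p = 0.0227), with 1.25% of all genes lower and 1.01% higher at this threshold. That of S over LE was -4.96 ± 1.56 and missed the threshold (adjusted p = 0.0609). The call against GE ended under 14 of 35 other settings, among them a block for the biopsy in place of sums (adjusted p = 0.159), no filter on low counts (0.0548), and each of the pregnant M, pregnant U and cyclic B stromal libraries left out (0.057, 0.0933 and 0.0696).

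GCNT1 had 1 count in each cyclic stromal library and none in pregnant S. All 4 stromal libraries lay below all luminal ones (ratio of luminal to stromal CPM 79.2, 95% counting interval 21.8 to 656; adjusted p = 0.0514). ST6GAL1 stood at 135 and 0 CPM in pregnant S of M and U and at 7.10 and 12.2 CPM in cyclic S of B and M, with a log2 fold change of S over GE of -3.90 ± 1.41 (adjusted p = 0.128). The high stromal value was in pregnant M, the library with the most gland marker RNA, whose part was not tested. ST6GALNAC3 (2 stromal counts) and GALNT12 (3 stromal counts) also lay below every glandular library in all 4 stromal ones, but at the limit of depth. The lowest glandular value of each was cyclic M at 6.86 CPM, from 1 count. The 3 stromal counts of GALNT12 were all in pregnant M, at 5.71 CPM. Neither gene passed (edgeR adjusted p = 0.182 for ST6GALNAC3 and 0.357 for GALNT12). GALNT2 had no stromal count and was at least 22.3-fold lower than in GE pooled over all 8 libraries, against a floor of 3 counts over the stromal libraries (edgeR adjusted p = 0.158). Within biopsies GALNT2 was lower in S in 2 of 4, and uncounted in both S and GE in the other 2.

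Some members were counted in S. FUT8 stood at 0 and 126 CPM in pregnant S of M and U and at 7.10 and 140.1 CPM in cyclic S of B and M, against at most 12.7 CPM in GE, and was the only one higher in S at an unadjusted p under 0.05, as were 3.55% of all genes (adjusted p = 0.199). B4GALT2 reached 396 CPM in cyclic S of M and 74.3 and 34.5 CPM in pregnant S of M and U. MGAT1 stood at 509 CPM in pregnant S of M and at 0 to 6.09 CPM in the other 3, and B4GALT4 at 149 CPM in pregnant U. At an unadjusted p under 0.05, 11 of the 30 were lower in S than in GE and 9 lower in S than in LE, where the shares over all genes were 13.9% and 12.2%. None was higher in S than in LE, as were 3.42% of all genes. DESeq2 called 8 of the 38 in S against GE and 7 of the 38 in S against LE, and 7.98% and 8.73% of all genes.

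Day 12 of pregnancy against day 12 of the cycle asked whether these enzymes follow the presence of a conceptus. No glycosyltransferase passed in LE, GE or S. In LE 13 of the 38 had enough counts to be tested and 0 passed (edgeR; 0.345% of 4344 genes were higher and 0.0921% lower). At an unadjusted p under 0.05, 1 was higher and 1 lower, where the shares over all genes were 3.55% and 4.26%. None had all pregnant libraries above or all below the cyclic ones, as 1.52% and 3.29% of all genes did. DESeq2 called 2 of the 20 with an adjusted p, GALNT11 and FUT8, and 2.18% of all genes.

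GALNT11 (100063633), a starter enzyme known to act on the Notch receptor and on lipoprotein receptors, had the smallest p in LE. It stood at 2.60, 0, 5.20 and 23.6 CPM in pregnant B, C, M and U and at 108, 75.7, 20.9, 875 and 188 CPM in cyclic B, C, J, M and U. Of the 13 tested, 1 was lower in pregnancy in 4 of 4 mares (GALNT11) and 1 higher (GALNT1). The share of all genes with such a direction was not computed. The groups of GALNT11 overlapped through pregnant U and cyclic J. The log2 fold change of pregnant over cyclic LE was -4.92 ± 1.36 (7.85 ± 10.7 CPM, n = 4, against 253 ± 353 CPM, n = 5; edgeR adjusted p = 0.0587). It passed in 4 of 16 other settings, with adjusted p from 0.0299 without pregnant U to 0.692 without cyclic M.

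GALNT1 stood at 59.8, 329, 530.5 and 333 CPM in pregnant LE of B, C, M and U and at 16.9, 72.1, 72.3, 243 and 10.0 CPM in cyclic LE of B, C, J, M and U. It was higher in pregnancy in 4 of 4 mares, with pregnant B inside the cyclic range (1.92 ± 0.97; adjusted p = 0.635). B4GALT5 stood at 205, 317, 0 and 354 CPM in pregnant and at 23.2, 27.4, 93.2, 0 and 142 CPM in cyclic LE. It was higher in 3 of 4 mares and uncounted in both states of mare M (1.91 ± 1.15; adjusted p = 0.751). GCNT3 averaged 412 ± 353 CPM in pregnant and 318 ± 307 CPM in cyclic LE, higher in 1 of 4 mares, with a log2 fold change of 0.39 ± 0.75 (adjusted p = 0.973). Without the pregnant library of mare M it was -0.29. FUT8, which DESeq2 called as lower, was below the filter of edgeR. It stood at 0, 0, 0 and 2.62 CPM in pregnant LE of B, C, M and U and at 190.1, 28.3, 105, 0 and 56.9 CPM in cyclic LE of B, C, J, M and U, with 1 count against 210.

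**Figure D5:**
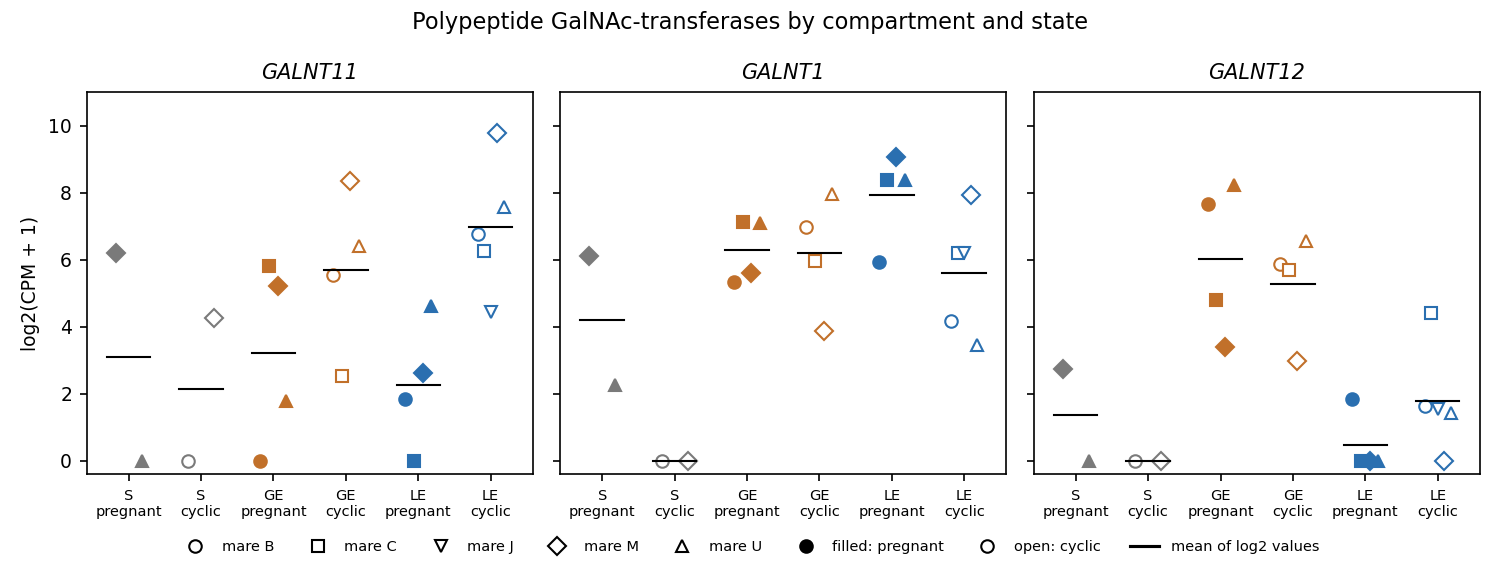
Levels of GALNT11, GALNT1 and GALNT12 as log2(CPM + 1) per library, with compartments and states along the x axis, 1 symbol shape per mare, filled symbols for pregnant and open symbols for cyclic libraries, and lines at the mean of the log2 values. In LE, GALNT11 lies at 0 to 23.6 CPM in pregnant and 20.9 to 875 CPM in cyclic libraries. GALNT12 lies mostly higher in GE than in LE, with cyclic LE of mare C (20.1 CPM) inside the glandular range.

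In GE 17 of the 38 were tested and 0 passed (edgeR; 0.0415% of 4816 genes were higher and 0.0208% lower), 0 had an unadjusted p under 0.05 (1.87% of all genes higher and 5.4% lower), and DESeq2 called 0 (0.00802% of all genes). None had all pregnant libraries above or all below the cyclic ones (1.81% and 1.02% of all genes). ST6GAL1 averaged 361 ± 255 CPM in pregnant and 125 ± 130.2 CPM in cyclic GE (n = 4 each), higher in 3 of 4 mares, with a log2 fold change of 1.56 ± 0.96 (adjusted p = 0.847). GALNT11 stood at 0, 54.7, 36.4 and 2.44 CPM in pregnant GE of B, C, M and U and at 45.1, 4.74, 322 and 84.7 CPM in cyclic GE, lower in 3 of 4 mares (-2.19 ± 1.41; adjusted p = 0.896). GALNT12 averaged 134 ± 140.1 CPM in pregnant and 52.1 ± 35.4 CPM in cyclic GE (1.37 ± 1.18; adjusted p = 0.999). GCNT3 was below the filter, with values that overlapped. In S only FUT8 was tested, and its states overlapped, where 19.3% of all genes lay wholly above and 12% wholly below (-0.10 ± 2.90; adjusted p = 0.999). In S 0 of 2212 genes passed (edgeR), 2.94% were higher and 1.04% lower at an unadjusted p under 0.05, and DESeq2 called 0% of genes.

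Whether pregnancy differed between the epithelia was tested as the effect in GE minus the effect in LE over the 16 epithelial libraries other than J. Of the 24 glycosyltransferases tested, 0 passed (edgeR; 0.0145% of 6884 genes were higher and 0% lower), 0 had an unadjusted p under 0.05 (4.62% of all genes higher and 0.915% lower) and DESeq2 called 0 (0.6% of all genes). The smallest p were those of ST6GALNAC3 (4.67 ± 3.39), B4GALT5 (-3.47 ± 2.55) and GALNT1 (-2.69 ± 2.0), each with an adjusted p of 0.888. GCNT3 had a difference of 1.14 ± 1.87 (adjusted p = 0.947). The median difference was 1.20 log2 units over the 24 genes and 1.28 over all genes.

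Other genes of glycan synthesis were read from 9 lists: mucins, other mucin core enzymes, sugar nucleotide synthesis, nucleotide sugar transporters, N-glycan transfer, N-glycan trimming, glycan sulfotransferases, glycosidases and galectins. None of their genes passed in the pregnancy comparisons of LE, GE and S or in the difference between the epithelia (edgeR). In GE against LE the mucin with the smallest p was MUC1, the membrane mucin of the uterine surface, at 0 to 28.7 CPM in GE and 46.9 to 384 CPM in LE. Every glandular library lay below every luminal one, as for 0.285% of all genes, yet the adjusted p was 0.119 (-4.90 ± 1.66). Of 5 mucins tested 1 had a positive fold change, with a median of -4.30 against 0.18 over all genes. Of 4 galectins tested 0 had a positive one (median -2.08), and of 9 N-glycan trimming genes 3 (-0.38). Positive fold changes of GE over LE were given by 16 of 21 sugar nucleotide genes (median 0.89), 6 of 9 nucleotide sugar transporters (1.94), 10 of 12 N-glycan transfer genes (1.13), 4 of 6 other mucin core enzymes (0.09) and both sulfotransferases.

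In S against GE 3 list genes passed, all lower, where 1.25% of all 9122 genes tested were lower. They were 1 of 21 sugar nucleotide genes, 1 of 9 nucleotide sugar transporters and 1 of 11 glycosidases. In each of the 3, every stromal library lay below every glandular one, as for 2.49% of all genes. SLC35A3, the transporter of UDP-N-acetylglucosamine into the Golgi, held 4 counts in S, at 0 to 3.83 CPM, against 27.4 to 959 CPM in GE (-6.13 ± 1.35; adjusted p = 0.00129). GFPT1, which commits sugar to the making of UDP-N-acetylglucosamine, stood at 0 to 53.3 CPM in S and 144 to 800.3 CPM in GE (-4.34 ± 1.22; adjusted p = 0.0227). AGA, a lysosomal enzyme that breaks down N-linked glycoproteins, stood at 19.2 to 213 CPM in S and 471 to 1956 CPM in GE (-2.68 ± 0.77; adjusted p = 0.0268). Of 9 nucleotide sugar transporters tested, 1 had a positive fold change of S over GE, with a median of -4.24 against -1.34 over all genes. In S against LE no list gene passed (edgeR). The smallest p there were those of SLC35A3 (-4.03 ± 1.27; adjusted p = 0.0613) and MUC1 (-6.45 ± 2.13; adjusted p = 0.0833).

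In LE the list genes with the smallest pregnancy p included MUC6, a gel-forming mucin (-3.32 ± 1.20; edgeR adjusted p = 0.303). Its mean was 25.9 ± 46.7 CPM in pregnant LE (SD, n = 4) and 257 ± 498 CPM in cyclic LE (n = 5), with each SD above its mean. Another was LGALS3BP, a secreted galectin ligand, with 197 ± 152 CPM in pregnant LE and 13.8 ± 17.6 CPM in cyclic LE (3.79 ± 1.40; adjusted p = 0.311). CMAS, which activates sialic acid for transfer, averaged 3.05 ± 4.53 CPM in pregnant LE against 85.4 ± 96.5 CPM in cyclic LE (-4.61 ± 1.92; adjusted p = 0.433).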

How the data were processed

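Day 12 endometrium of the horse was profiled in 21 laser-captured libraries, made from 1 ng of total RNA with a kit for single cells, per the labels' protocols. Further amplification of some libraries is mentioned without naming them. The labels name 5 mares and the design text speaks of 6. Trimmomatic 0.32.2 and HISAT2 2.0.3 are named in the submitters' processing notes. The genome build, annotation, counting tool and use of strand are not stated in those sources. Raw read counts were deposited for 24942 gene IDs, and the authors' signal in CPM for 10307 genes equals the counts divided by a constant of each library. A second table, of 19 libraries, was not used. Symbols came from the RefSeq table of the TB-T2T assembly (85.9% of IDs matched).

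Tests used edgeR 4.0.16 in R 4.3.3 on the raw counts (quasi-likelihood F-test, two-sided, TMM scaling, filterByExpr by group with a minimum count of 10 and a minimum total of 15). P-values were adjusted over all genes tested (Benjamini-Hochberg, threshold 0.05). The filter by group was chosen after initial fits had been seen. Pregnancy was compared within a compartment without a block, and the difference of its effects with the biopsy as block. Compartments were compared from 12 sums per mare and compartment with the mare as block, where the deeper library of a mare weighs more. The mare pairing comes from the labels. Deviations of same-mare libraries correlated at 0.0156 to 0.0535 in LE and -0.0106 to 0.0449 in GE. Those of different mares correlated at -0.0426 to 0.0197 in LE and -0.0809 to 0.0894 in GE. Between GE and LE, same-mare values were -0.0292 to 0.0297 in pregnancy and 0.0284 to 0.107 in the cycle. Different mares gave -0.0561 to 0.0368 and -0.0870 to 0.0556 there. The ranges met each time, so these values do not settle the pairing. P-values of the pregnancy effects and of their difference measure the spread between biopsies, and the same mares recur in both states. Those of the compartment comparisons measure how the difference between compartments varied between mares, since the libraries of a mare were summed within a compartment. Stroma had both states in mare M alone. Cyclic S of B and pregnant S of U stood against epithelial sums of both states, so that state was mixed into the stromal comparisons. The n beside mean CPM counts libraries, not these sums. SE is the estimate over the square root of F. Levels are CPM of the TMM-scaled library size over 9789 genes. With no counts, 3 counts over the group served as the floor. Exact 95% intervals reflect counting alone, because reads that lack molecular identifiers may repeat 1 molecule. Alternatives used DESeq2 1.42.0, limma 3.58.1 (deposited signal plus 1 or 10) and other settings.

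The glycosyltransferases and gene lists were chosen with earlier results of these data known. Fold changes with tests are given for GCNT3, for genes past the threshold and for the 3 smallest p in a comparison, and in the other lists for genes past the threshold or the smallest p. Fold changes, p-values and shares of further glycosyltransferases, and the lists whose smallest p is printed, were chosen after the values were seen. 1 result of these lists is not reported here.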

Additional observations from a re-analysis of the deposited data

Results flagged for a closer look

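Among 11 glycosyltransferases given a test, 43 groups of 4 or 5 libraries were examined by Dixon's criterion for a library far from the others. Its chance rate of about 1 in 20 groups holds for normally distributed values, not for CPM with zeros and a few high values. The criterion was met in 12 groups, each time by a high library, and no chance rate is known to set beside this number.

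In mare M, the cyclic luminal library was high for GALNT11 (875 CPM, next 188 CPM), GALNT1 (243 CPM, next 72.3 CPM) and GCNT1 (338 CPM, next 50.7 CPM). In the same library GCNT3 was lowest, at 3.16 CPM.

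In mare B, the pregnant glandular library was high for GCNT3 (134 CPM, next 7.32 CPM) and B4GALT5 (71.4 CPM, next 10.4 CPM). It was also high for FUT8, with 4.61 CPM from 2 counts and 0 in the others. The pregnant luminal library of mare B was high for ST6GAL1 (127 CPM, next 9.59 CPM), for GALNT2 (119.6 CPM, 0 in the others) and for GALNT12 (2.60 CPM, 1 count, 0 in the others).

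In mare C, the cyclic luminal library, the deepest of its group, was high for GALNT12 (20.1 CPM, next 2.11 CPM) and ST6GALNAC3 (25.5 CPM, next 6.34 CPM). In mare U, the pregnant luminal library was high for FUT8 with 2.62 CPM from 1 count. Flags that rest on 1 or 2 counts are at the limit of depth.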

How the results depend on the processing

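Counts of glycosyltransferases called moved with the tool and the samples. The share of all genes called under a setting stands in brackets. GE against LE gave 1 (1.48%). DESeq2 gave 7 (6.76%), single libraries with the biopsy as replicate block 3 (3.66%), and no replicate block 3 (2.28%). The cyclic libraries alone gave 0 (0.56%), the pregnant libraries alone 0 (0.927%), and no pregnant LE and cyclic GE of mare M 2 (1.17%). Leaving out a mare or library gave 1 to 4 (0.667% to 2.15%), with the 4 at 2.15%, without cyclic S of B. Single libraries were left out of the sums as a choice made after seeing the data. GCNT3 was called throughout except in the cyclic and the pregnant libraries alone, which hold fewer samples. S against LE gave 1 (2.14%), DESeq2 7 (8.73%), and no replicate block 4 (4.69%). The cyclic libraries alone gave 0 (0.187%) and the pregnant libraries alone 0 (0.287%). Without pregnant LE and cyclic GE of mare M there were 2 (2.13%), B4GALT1 and GCNT1, with GCNT3 at an adjusted p of 0.114. Leaving out a mare or library gave 1 to 3 (0.841% to 3.24%). S against GE gave 1 (2.26%), DESeq2 8 (7.98%), no filter 0 (0.956%), and the biopsy as replicate block 0 (1.49%). The cyclic libraries alone gave 0 (0.261%) and the pregnant libraries alone 0 (0%). Leaving out a mare or library gave 0 to 4 (0.616% to 3.74%), with the 4 at 3.74%, without mare M. The B4GALT1 call there ended without mare B, C or U, without cyclic LE of B, C or M, without pregnant GE of M, and without pregnant S of M or U or cyclic S of B (adjusted p 0.0554 to 0.184). Pregnancy in LE gave 0 (0.437%), DESeq2 gave 2 (2.18%), and leaving out a library 0 to 1 (0.0383% to 0.681%). GALNT11 passed without pregnant M, pregnant U or cyclic J (adjusted p 0.0383, 0.0299 and 0.0487). The mare as replicate block gave 0 in LE (0.319%) and in GE (0%), and no other setting in GE, S or the difference of effects gave a call. No paired analysis was possible for S because its states share 1 mare. The sign turned for GCNT3 in LE pregnancy without pregnant M (-0.29, the lowest, to 1.15 on leaving out one library), for GCNT3 in the difference without mare B (-1.32, the lowest, to 2.23), and for FUT8 in S without pregnant M (0.84) or cyclic M (2.90, the highest, with -7.38 the lowest). A stromal state left with 1 library is assumed to vary like the other. The cause was not tested. RLE factors moved the median log2 fold change of all genes from -1.10 to -0.85 in S against LE, from -1.34 to -0.99 in S against GE, from 1.28 to 0.98 in the difference, from -0.04 to 0.11 in LE pregnancy, from 0.07 to -0.05 in GE pregnancy and from 0.26 to 0.02 in S pregnancy, and no call of a glycosyltransferase changed. Over all settings and single genes 442 values kept direction and side of the threshold, 20 lost and 39 gained a call, and 4 changed sign. Genes with few counts were limited by depth, and 25 of the 38 could not be tested in LE pregnancy, 21 in GE and 37 in S.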
